A study of Mus musculus with 13 samples.

Results

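Sites at which mouse embryonic stem cells carried called peaks of both H3K9me3 and H3K27me3 were described from deposited peak lists. Touching peaks of the 4 H3K9me3 lists were merged, and a merged region on autosomes 1 to 19 was kept where 2 or more of these lists held it and a peak of at least 1 of the 4 H3K27me3 lists overlapped it by 1 bp or more. The sites were thus chosen by the peak calls themselves, so the presence of both marks and the number of lists are given as a description with no test. The rule left 445 sites. They were 1.6% of the 27849 autosomal regions held by 2 or more H3K9me3 lists, and the 4 lists gave 50019 merged autosomal regions in all. Of 31429 merged autosomal H3K27me3 regions, 472 lay on a site.

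The cells were of the J1 strain, grew without feeders, and carried an inducible knockout of SetDB1 in every group, the untreated groups included. The lists came from chromatin immunoprecipitation and sequencing of H3K9me3 without tamoxifen (n = 4), H3K27me3 without tamoxifen (n = 2) and H3K27me3 after 2.5 µM tamoxifen (n = 2), which was given to ablate SetDB1. DMSO, the solvent of tamoxifen, is named as the control, and the sources used here give neither the duration of treatment nor the number of clones. Of 13 labelled samples, the 5 inputs and any H3K9me3 list after tamoxifen were not analysed here. The loss of SetDB1 therefore could not be checked at these sites. H3K9me3 list 4 has no antibody named in its label and was kept by its title, and 333 sites were found when it was left out.

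H3K9me3 is a mark of constitutive heterochromatin. SetDB1 is one of the enzymes that deposit it, and in embryonic stem cells this enzyme is best known for silencing endogenous retroviruses and for its part at imprinted regions. H3K27me3 is deposited by Polycomb repressive complex 2 and in these cells typically marks CpG-rich promoters of silent developmental genes. The marks are usually described in separate domains. A peak list of a whole culture does not tell whether both marks sat on the same nucleosome, on different alleles or in different cells.

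The lists held 18037, 29410, 42725 and 33743 peaks of H3K9me3 in lists 1 to 4. H3K27me3 lists held 7041 and 17094 peaks without tamoxifen and 15116 and 22265 after it. The first list of each group was called with MACS2 2.0.10 and the others with MACS2 2.1.0, per the submitters' processing notes. Each list gives positions alone, so read depth and peak height are unknown, and a site counts as held by a list where 1 bp or more of it lies in a peak. Nothing in the labels says that libraries of a group came from separate cultures, so a p-value here covers the spread between libraries only, and that spread may be technical. No genome or annotation of mm9, the build of the lists, was used here. Sites are therefore named by position, and no repeat, imprinted gene or developmental gene was assigned to any of them.

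The sites differed widely in the number of H3K27me3 lists behind them. A single H3K27me3 list held 234 sites (52.6%), 2 lists held 100 (22.5%), 3 lists held 33 (7.42%) and all 4 lists held 78 (17.5%). Calls by a single list were common among H3K27me3 regions in general, and less so on sites, with 229 of 472 merged regions on sites (48.5%) in 1 list against 20683 of 30957 off them (66.8%). Regions in all 4 lists made up 28.2% of those on sites and 15% of those off them. H3K27me3 regions in more lists were also wider, and the part of width in these shares was not tested. By H3K9me3, 178 sites were held by 2 lists, 134 by 3 lists and 133 by all 4. These were 2.15% of the 8287 candidate regions held by 2 lists, 1.49% of the 8974 held by 3 and 1.26% of the 10588 held by 4. The share of regions that were sites was therefore lowest among the regions that every H3K9me3 list held. Sites held by 1 H3K27me3 list were the most frequent kind at each number of H3K9me3 lists, with 87, 83 and 64 sites at 2, 3 and 4 lists. Sites held by all 4 H3K27me3 lists numbered 41, 16 and 21 in the same order.

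**Figure D1:**
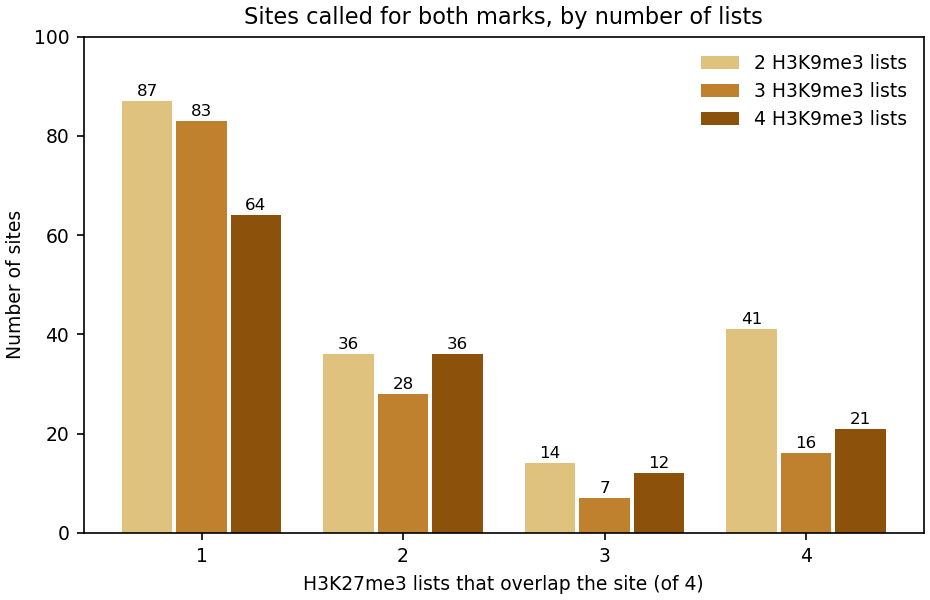
Number of sites (y axis) by the number of H3K27me3 lists that overlap them (x axis), with bars coloured by the number of H3K9me3 lists that hold them. The bars over 1 H3K27me3 list are the tallest at 87, 83 and 64 sites, and the 21 sites in the last bar on the right are held by all 8 lists.

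Sites ranged from 251 to 39373 bp, with a median of 1469 bp and a middle range from 869 to 2810 bp. The 27404 candidate regions with no H3K27me3 peak had a median of 1740 bp. Width grew with the number of H3K9me3 lists merged, so sites were set beside regions held by equally many lists. Among regions in all 4 H3K9me3 lists, the median width was 6726 bp at 4 H3K27me3 lists, 4319.5 bp at 1 list and 3335 bp at none. Among regions in 3 lists these medians were 2532.5, 1458 and 1553 bp. Among regions in 2 lists they were 1037, 812 and 897 bp. At each number of H3K9me3 lists, the widest median belonged to sites held by all 4 H3K27me3 lists. The medians did not rise steadily with H3K27me3 lists. At 2 and 3 H3K27me3 lists they were 2964.5 and 3280.5 bp among regions in all 4 H3K9me3 lists. They were 1532 and 1144 bp at 3 H3K9me3 lists, and 987 and 834 bp at 2. A wider region can be overlapped by more lists, and the part of this was not tested. By width class, which mixes regions of different numbers of H3K9me3 lists, sites made up 2.11% of candidate regions under 1000 bp (142 of 6734) and 1.42% of those from 1000 to below 3000 bp (201 of 14124). They made up 1.47% of those from 3000 to below 10000 bp (92 of 6279) and 1.4% of the 712 regions of 10000 bp or more.

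The part of a site that lay in peaks of both marks ran from a few bases to the whole site. Each site shared from 2 to 11060 bases, with a median of 486 and a middle range from 223 to 938. A median of 37.0% of a site's width lay in H3K27me3 peaks, with a middle range from 14.1 to 77.7%. The overlap with H3K27me3 was of an edge at 242 sites (54.4%), where an H3K27me3 region crossed 1 end of the site, with a median of 363 shared bases. At 126 sites (28.3%) the H3K27me3 regions lay inside the H3K9me3 region, and at 72 sites (16.2%) 1 H3K27me3 region spanned the whole site. In the remaining 5 sites H3K27me3 regions crossed both ends and left a gap between them. Of the 72 spanned sites, 45 were held by all 4 H3K27me3 lists and 2 by a single list, and their median width was 896 bp.

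Merging can join bases that no pair of lists shares. A base held by 2 or more H3K9me3 lists and by 1 or more H3K27me3 lists was present at 348 sites (78.2%). At the other 97 sites (21.8%) the H3K27me3 bases lay in a stretch that at most 1 H3K9me3 list had called. A base held by 2 or more lists of each mark was present at 164 sites (36.9%), and 12 sites (2.7%) had a base common to all 8 lists.

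Regions just inside and just outside the rule were set side by side. Regions held by 1 H3K9me3 list, just outside it, were overlapped by H3K27me3 in 418 of 22170 cases (1.89%) with a median of 258 shared bases, against 2.15% and 411.5 bases among regions held by 2 lists. Under 100 bases were shared at 34 sites (7.64%). On the other side, 32 candidate regions lay within 100 bp of an H3K27me3 peak without overlapping it, and the nearest touched one at a gap of 0 bp.

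Sites with many lists of one mark and few of the other had different shapes. The 57 sites in all 4 H3K27me3 lists and in 2 or 3 H3K9me3 lists had a median width of 1270 bp, and 39 of them were spanned by an H3K27me3 region. The 64 sites in all 4 H3K9me3 lists and 1 H3K27me3 list had a median width of 4319.5 bp, of which a median of 8.25% lay in H3K27me3 peaks, and none was spanned. The former were therefore mostly covered by H3K27me3 from end to end, and the latter were mostly outside it. Widths of both marks go with the list counts that define these sets. Without H3K27me3, H3K9me3 regions had median widths of 897 bp at 2 lists and 3335 bp at 4. Off the sites, H3K27me3 regions had medians of 427 bp at 1 list and 4648 bp at 4. The contrast was not separated from this choice of sets.

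H3K27me3 regions on sites had a higher median width than those elsewhere in every class except that of 2 lists. Regions held by 4 lists had a median width of 5400 bp on sites (n = 133) and 4648 bp elsewhere (n = 4635). For 3 lists the medians were 2237.5 and 1942 bp, for 2 lists 1028.5 and 1084 bp, and for 1 list 486 and 427 bp. Peaks at sites were also wider than all peaks of the same list in each H3K27me3 library, at 2891 against 2526 bp and 1356 against 783 bp without tamoxifen, and 871.5 against 731 bp and 936 against 725 bp after it. Wide regions overlap others more readily, and this was not separated from the choice of the sites.

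Each list was also counted at sites that it took no part in choosing. For each library the sites were chosen again from the other 7 lists, and its own peaks were then counted at them, with 95% Clopper-Pearson intervals that cover counting error only. H3K27me3 untreated list 1 held 120 of 425 such sites, or 28.2% (24 to 32.8%), while it held 0.0729% of the other H3K9me3 regions. Untreated list 2 held 169 of 395, or 42.8% (37.8 to 47.8%), beside 0.182% of the others. After tamoxifen, list 1 held 148 of 396, or 37.4% (32.6 to 42.3%), beside 0.178%, and list 2 held 174 of 330, or 52.7% (47.2 to 58.2%), beside 0.418%. Each H3K27me3 library thus held some of the sites chosen from the other lists, and no library held more than 52.7% of them. The other regions had no peak of the other H3K27me3 lists, so a low share there follows wherever H3K27me3 lists repeat each other. The gap between these shares is therefore no result about the sites. How often each list held H3K27me3 regions of the other lists off the sites is not given here.

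H3K9me3 showed the opposite order. List 1 held 147 of 421 sites chosen without it, or 34.9% (30.4 to 39.7%), against 49.4% of H3K9me3 regions with no H3K27me3 peak. List 2 held 67.8% (62.7 to 72.6%) against 76.1%, list 3 held 90.9% (86.7 to 94.2%) against 93.7%, and list 4 held 76.9% (72 to 81.3%) against 84.2%. In each of the 4 libraries H3K9me3 was called at a smaller share of the sites than of the other regions. The interval reached the background share in list 3 alone, but intervals treat sites as independent, which members of a cluster are not. They are therefore no test of this difference. Sites chosen without a list were also narrower at the median than the regions they were set against, from 1322 against 1501.5 bp without list 1 to 1668 against 1905 bp without list 4. The 2 sets were also not matched for the number of H3K9me3 lists. The part of width and of the number of lists in this difference was not tested.

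**Figure D2:**
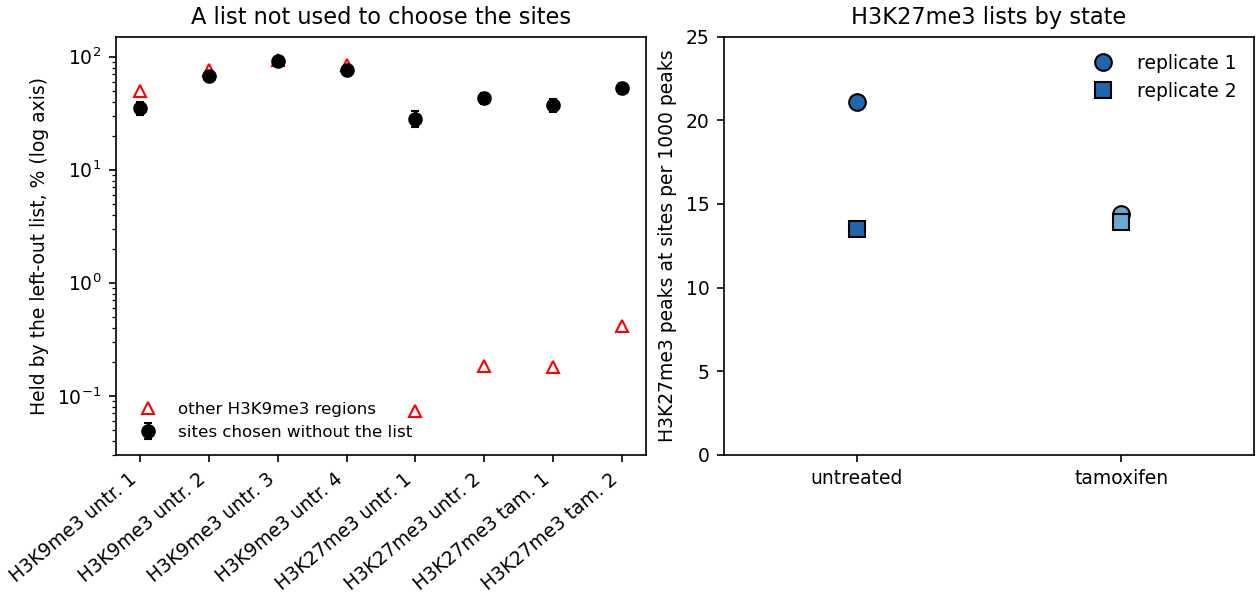
Left, percent of regions held by a list that was left out of the choice (log axis), for sites chosen from the other 7 lists (black, with 95% Clopper-Pearson intervals) and for the other H3K9me3 regions (red triangles). The other regions have no peak of the H3K27me3 lists used in the choice. Right, H3K27me3 peaks at sites per 1000 autosomal peaks of the list by state, where untreated list 1 stands alone at 21.1 and the other 3 lists lie between 13.5 and 14.4.

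All 8 lists held 21 sites (4.72%), on 14 chromosomes, and these are set apart here by that count alone. Their widths ran from 896 to 12177 bp with a median of 6726 bp, and they held 18.9% of all shared bases. A base in 2 or more lists of each mark was present at 20 of them and a base common to all 8 lists at 12. Being in all 8 lists therefore did not mean that the peaks coincided. At 12 of the 21 every H3K9me3 list covered more bases than every H3K27me3 list, at 2 sites the reverse held, and at the other 7 the lists of the 2 marks overlapped in cover.

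The site with the most complete cover by both marks was chr17:39979912-39985790, of 5879 bp. Inputs were not analysed, so whether input reads also pile up at this site is not known. H3K9me3 peaks covered 5879, 5791, 5784 and 5789 of its bases in lists 1 to 4. H3K27me3 peaks covered 4102 and 4852 bases without tamoxifen and 4117 and 4834 bases after it. All H3K9me3 lists covered nearly the whole site and all H3K27me3 lists lay inside it. The bases common to all 8 lists made up 66% of the site, the highest share of the 21, and the next highest was 44.9% at chr12:8305541-8307359. The H3K27me3 cover differed by list number, 4102 and 4117 in the first lists against 4852 and 4834 in the second, and not by state.

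The site with most shared bases was chr11:11920889-11931948, where an H3K27me3 region spanned all 11060 bp. H3K9me3 covered 4724, 6897, 10427 and 10336 bases in lists 1 to 4. H3K27me3 covered 9990 and 9422 bases without tamoxifen and 7508 and 9080 bases after it. Both tamoxifen lists were below both untreated lists here, and 28.9% of the site was common to all 8 lists. At chr9:91278502-91285053, next by shared bases with all of its 6552 bp shared, no base was common to all lists. H3K9me3 covered 1177, 4444, 6552 and 2403 bases there, and H3K27me3 covered 6552 and 1635 bases without tamoxifen and 3323 and 1253 after it. Without H3K27me3 untreated list 1 the shared bases of that site were 3323, so its full cover came from 1 library.

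At chr11:3089322-3096047 (6726 bp) H3K9me3 covered 3829, 3914, 5953 and 6698 bases. H3K27me3 covered 3986 and 4016 bases of that site without tamoxifen and 2532 and 5034 after it, so the tamoxifen lists lay on either side of the untreated ones. At chr2:174116891-174127507 (10617 bp) H3K9me3 covered 6160, 8226, 10617 and 8073 bases, and H3K27me3 covered 4850 and 3095 bases without tamoxifen and 2837 and 4070 after it. H3K27me3 formed a block inside a longer H3K9me3 region at that site, and 15.7% of it was common to all 8 lists.

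Lower cover in both tamoxifen lists than in both untreated lists was also found at chr10:12807371-12812543 (5173 bp). H3K27me3 covered 2942 and 2084 bases of it without tamoxifen and 1591 and 1479 bases after it, and H3K9me3 covered 3404, 3253, 5114 and 5173 bases. Only 1 base of that site was common to all 8 lists. In all, both tamoxifen lists were below both untreated lists at 4 of the 21 sites and above them at 0. Off the sites, among 4635 H3K27me3 regions in all 4 lists, the same orders were found at 23.9% and 5.13%, so the count of lower sites was near that background. Those shares take cover over whole H3K27me3 regions, while cover at a site ends at its borders, so the measures are not alike. At the other 4 named sites of this set every H3K27me3 list covered a smaller part of the site than every H3K9me3 list. The H3K27me3 lists differed in the bases covered, and together they covered 2656 of the 4111 bp of the site on chromosome 18. The 4 sites were chr6:90258221-90267394, with 28 to 35.7% of its width in H3K27me3 by list, chr14:68733942-68744826 with 11 to 22.7%, chr18:37879951-37884061 with 25.7 to 47%, and chr5:121274239-121282556 with 20.6 to 29.7%.

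A few sites of the 21 had the reverse shape, with H3K27me3 over the whole width. At chr8:119657588-119658853 (1266 bp) every H3K27me3 list covered 100% and the H3K9me3 lists covered 48.7, 59.1, 92 and 56.6%. At chr17:12963167-12964178 (1012 bp) the H3K27me3 lists covered 94.6 to 100% and the H3K9me3 lists covered 24.9, 67.4, 31.1 and 85.2%. Both were chosen for mention after their values were seen, as the sites where every H3K27me3 list covered more than every H3K9me3 list.

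**Figure D3:**
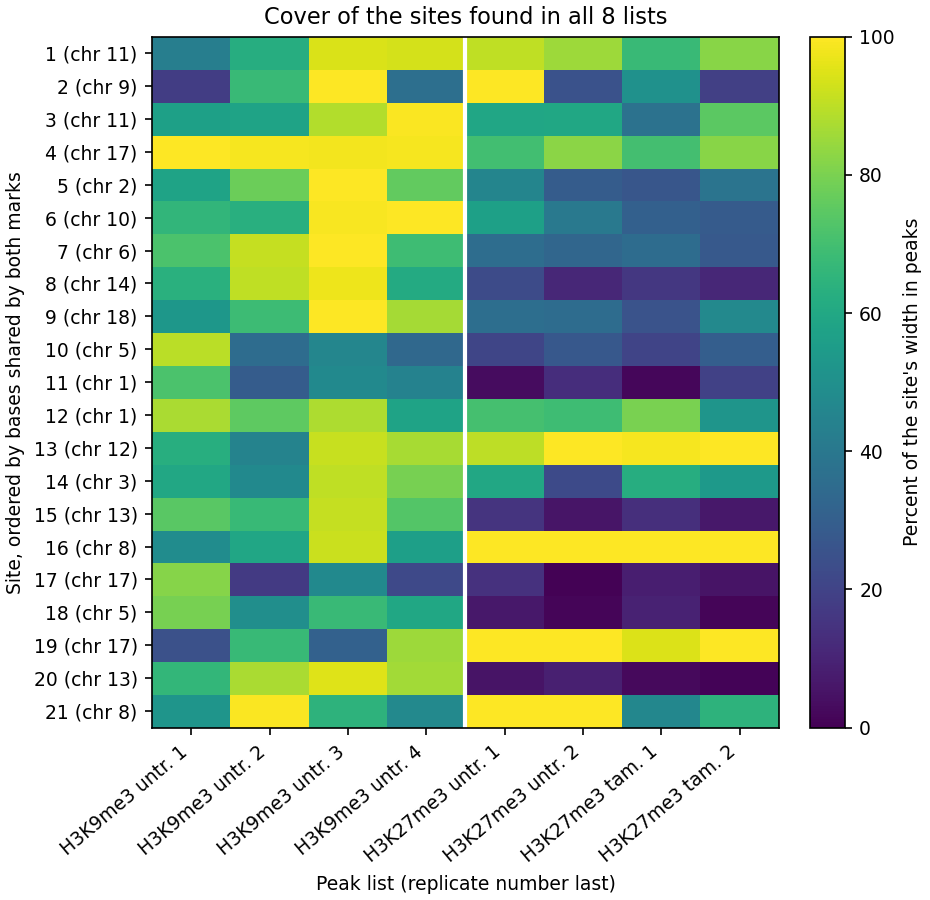
Percent of the width of each of the 21 sites held by all 8 lists (rows, ordered by bases shared by both marks) that lies in peaks of each list (columns). The 4 H3K9me3 columns are bright for row 4, the site on chromosome 17 with 98.4 to 100% cover, and the H3K27me3 columns are uniformly bright for row 16, the site on chromosome 8 with 100% cover in each list.

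Among sites not in all 8 lists, 7 of the 10 with most shared bases had no H3K9me3 peak in list 1, near the 64.6% of all 424 such sites. At chr18:37912215-37918061 (5847 bp) H3K9me3 covered 0, 1239, 5056 and 737 bases and H3K27me3 covered 5847 and 5847 bases without tamoxifen and 5203 and 5809 after it. At chr6:48577827-48581730 (3904 bp) H3K9me3 covered 0, 2777, 3904 and 395 bases and H3K27me3 covered 3637 and 2850 bases without tamoxifen and 3533 and 3027 after it. H3K27me3 covered at least 73% of both sites in all 4 lists, while the H3K9me3 cover was most complete in list 3. Without H3K9me3 list 3 the shared bases fell to 1943 at chr18:37912215-37918061 and to 2777 at chr6:48577827-48581730.

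The order was the other way at chr9:92823018-92832917 (9900 bp). H3K9me3 covered 5730, 6702, 9900 and 8716 bases of it, and H3K27me3 covered 0 and 2588 bases without tamoxifen and 2648 and 3284 after it. All 4 H3K9me3 lists held this site, and the first untreated H3K27me3 list did not. At chr6:48544517-48551596 (7080 bp) H3K27me3 was called after tamoxifen alone, over 526 and 3464 bases, beside H3K9me3 over 0, 5993, 7080 and 4108 bases. The tamoxifen lists did not overlap each other within that site. At chr6:30683136-30691322 (8187 bp) H3K27me3 covered 0 and 599 bases without tamoxifen and 0 and 3614 after it, so both peaks were from second lists. In chr8:56199383-56202570 (3188 bp) they were as well, with 0 and 2559 bases without tamoxifen and 0 and 2604 after it. The remaining 4 of the 10 lay at chr11:116081913-116085250, chr9:89771404-89774703, chr18:37891059-37894178 and chr18:37921984-37925022, and all 4 H3K27me3 lists held each of them.

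The widest site was chr9:3000007-3039379, of 39373 bp. H3K9me3 covered 38324 bases of it in list 1 and 10351, 9272 and 10089 in lists 2 to 4. H3K27me3 covered 0 and 2163 bases without tamoxifen and 0 and 1832 after it. A single H3K9me3 list set its width, and both H3K27me3 peaks were from second lists. The second widest, chr6:3150688-3165515 (14828 bp), had H3K9me3 over 7174, 11213, 13485 and 7948 bases and H3K27me3 over 0, 181, 0 and 776 bases in the same order of lists. The next 2 were chr1:6418806-6430982 and chr13:64264661-64276140. All 8 lists held both, but H3K27me3 covered 1.74 to 19.5% of the first and 0.906 to 8.79% of the second.

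Chromosome 8 held more sites than any other autosome, 85 of the 445 (19.1%), while it held 6.76% of the candidate regions. Of its 1882 candidate regions 4.52% were sites, against 1.39% of those on all other autosomes. Chromosomes 11 and 18 followed with 2.79% (34 of 1217) and 2.36% (23 of 975), and chromosome 3 was lowest with 0.759%. The sites of chromosome 8 ran from position 3991494 to 128288100, with at least 1 in each of 13 windows of 10 Mb and at most 14 in a window. They were thus spread along the chromosome. A single H3K27me3 list held 46 of the 85 and all 4 lists held 12.

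The number of H3K27me3 peaks on chromosome 8 was also high. It held 11.6% of merged autosomal H3K27me3 regions, and 7.95 and 9.39% of the peaks of the untreated lists and 11.4 and 10.6% of those of the tamoxifen lists. H3K9me3 peaks there were 6.61 to 6.87% of each list. Of the H3K27me3 regions on chromosome 8, 2.47% lay on a site, below the 2.85% of chromosome 18, while chromosome 11 had 1.15%. The part that the number of H3K27me3 peaks on chromosome 8 has in its number of sites was not tested. By list, 26 and 39 of the sites held without tamoxifen were on chromosome 8, and 39 and 47 of those held after it, which was 16.3 to 19.8% of the sites each list held.

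**Figure D4:**
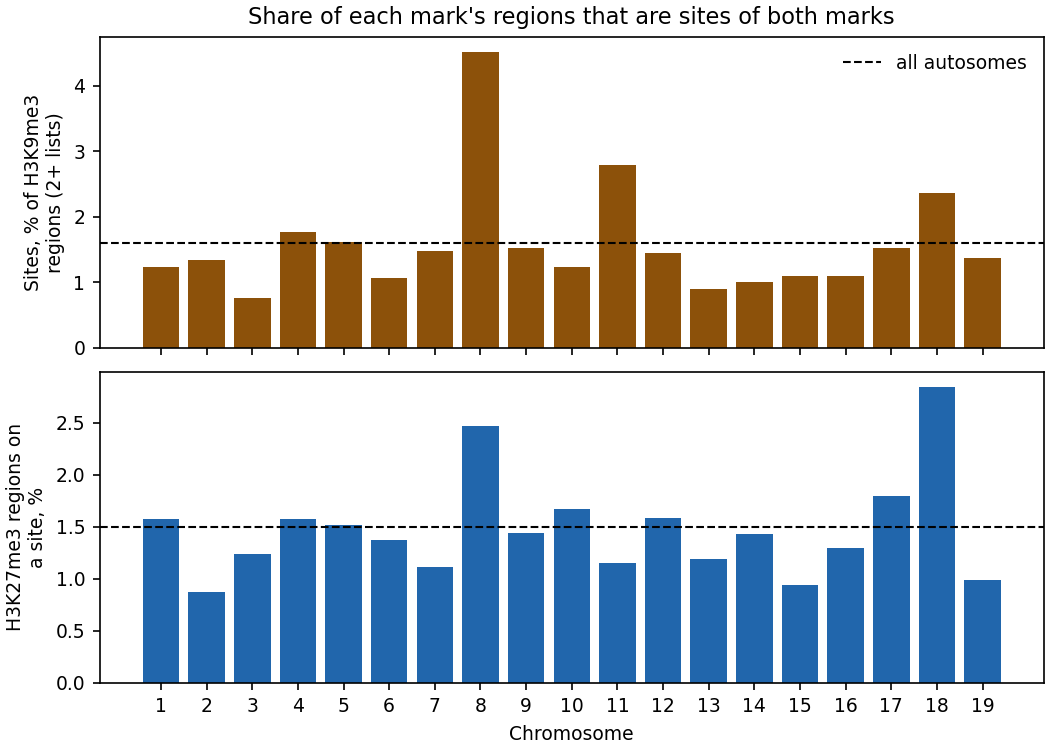
Top, percent of H3K9me3 regions held by 2 or more lists that are sites, by chromosome; bottom, percent of merged H3K27me3 regions that lie on a site. Dashed lines mark all autosomes together; chromosome 8 is highest in the top panel at 4.52%, and chromosome 18 in the bottom panel at 2.85%.

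A minority of sites lay close to another one, and the median gap between neighbouring sites was 2.017 Mb. For 51 of 444 sites with a next candidate region, that next region was a site too (11.5%), beside 1.6% of all candidate regions, and only 6 of these 51 pairs were joined by 1 H3K27me3 region that reached both. Within 100 kb of another site lay 101 sites (22.7%), in 39 clusters of which 28 were pairs. Neither this share nor the median gap is given for other candidate regions, so they do not tell whether sites lie closer together than those. Of the clustered sites 25.7% were held by all 4 H3K27me3 lists, against 15.1% of the 344 single sites. These shares were 30.2 and 15.8% with 10 kb as the distance, and 19.2 and 15.6% with 1 Mb. Of the 26 clustered sites in all 4 lists at 100 kb, 5 lay in 1 cluster on chromosome 18 and 4 in 1 on chromosome 11. Members of a cluster can share a domain and are not independent of each other.

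The largest cluster spanned 134255 bp at chr11:3049770-3184024 and held 7 sites, 4 of them in all 4 H3K27me3 lists. Its widest site is the one of 6726 bp described above. The first pair of the cluster, chr11:3049770-3050200 and chr11:3050943-3051505, had no H3K9me3 peak in list 1, with 379, 431 and 378 bases covered in lists 2 to 4 at the first and 502, 501 and 521 at the second. At chr11:3059018-3059913 and chr11:3065580-3068145, H3K9me3 lists 1 and 2 had no peak while all 4 H3K27me3 lists did. At chr11:3081235-3082271 H3K9me3 was called in lists 1 and 4, over 943 and 324 bases, and H3K27me3 covered all 1037 bases in list 1 of both states and 282 and 258 bases in list 2. The last site, chr11:3179987-3184024, was held by all H3K9me3 lists and by H3K27me3 tamoxifen list 1 alone. The set of H3K9me3 lists with a peak thus varied among the sites of the cluster.

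The cluster at chr18:37879951-37927238 held 6 sites over 47288 bp, and 5 of them were in all 4 H3K27me3 lists. Its 16350 shared bases were more than the 10288 of the larger cluster on chromosome 11. A further cluster on the same chromosome, chr18:37089928-37135932, held 4 sites, of which H3K9me3 list 1 held 0. In contrast, no first H3K27me3 list held any site of 3 other clusters. These were chr8:19917172-19980908 with 5 sites, of which untreated list 2 held 5 and tamoxifen list 2 held 4, chr4:146551728-146653136 with 4 sites, 3 in each of these lists, and chr10:57685506-57702505 with 4 sites, all in both. At the latter 2 clusters every site was in all 4 H3K9me3 lists.

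**Figure D5:**
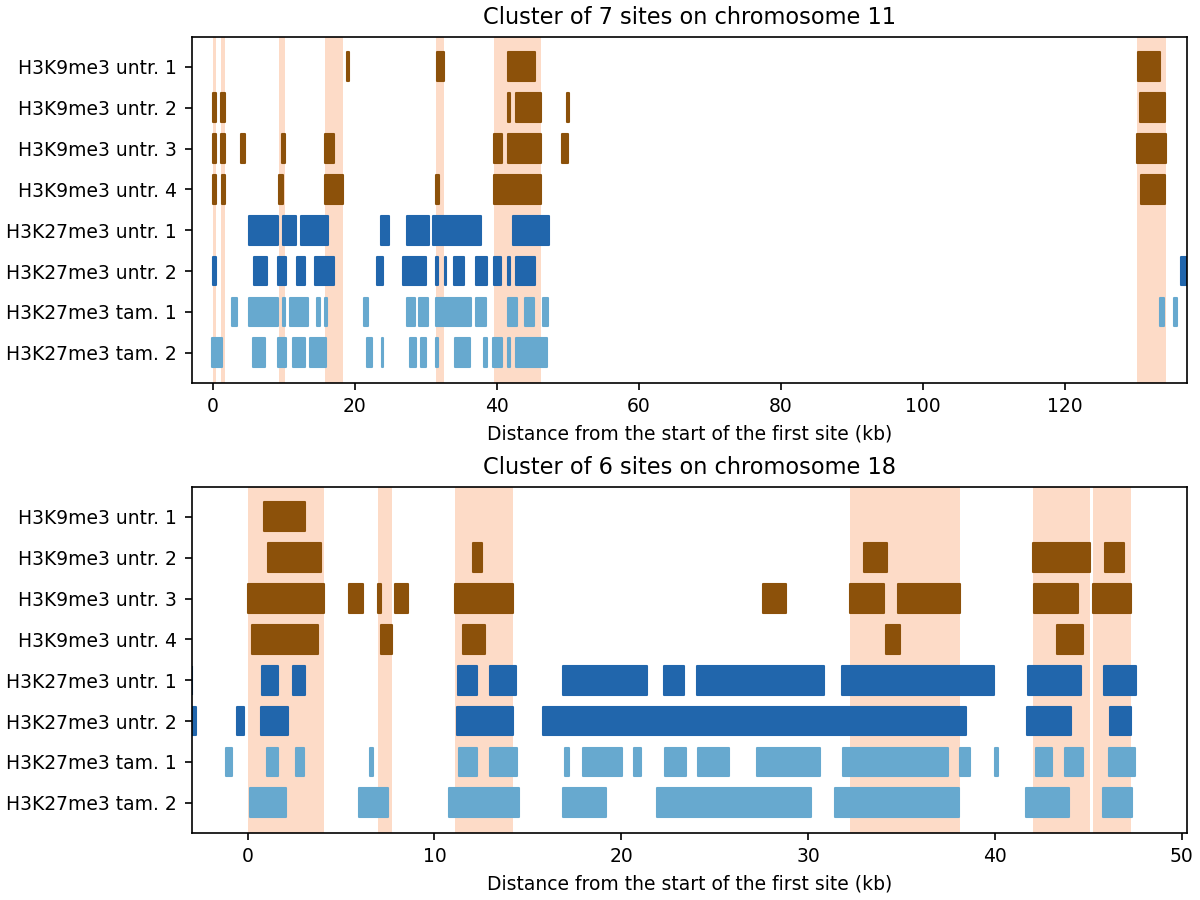
Peaks of the 8 lists (rows; brown H3K9me3, dark blue H3K27me3 untreated, light blue H3K27me3 with tamoxifen) along the clusters of 7 sites on chromosome 11 and 6 sites on chromosome 18, by distance in kb from the start of the first site; shaded bands are the sites. On chromosome 18, 5 of the 6 bands have a peak in all 4 H3K27me3 lists, while H3K9me3 list 1 has a peak in 1 of the 6.

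Untreated and tamoxifen lists were compared over the 445 sites, since the rule took a peak of either state. Untreated lists held 140 and 219 sites and tamoxifen lists held 197 and 289. The states overlapped, with the second list above the first in each. The means were 179.5 ± 55.9 and 243 ± 65.1 sites (SD, n = 2 each), a difference of 63.5, with 57 between the first lists and 70 between the second lists. The two-sided exact permutation test gave p = 0.667, where the smallest p that 2 lists against 2 can give is 0.333. Adjusted by Benjamini-Hochberg over the 4 such tests made, each p was 1. With an equal number of widest peaks taken from each H3K27me3 list, the difference was -17.

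Other measures did not separate the states either. H3K27me3 peaks covered 156060 and 176383 bases of the sites without tamoxifen and 143669 and 225236 after it, and the difference of means of 18231 bases (exact permutation p = 1) was -12391 between first lists and 48853 between second lists. Peaks at sites were 21.1 and 13.5 per 1000 autosomal peaks without tamoxifen and 14.4 and 13.9 after it, a difference of -3.16 (exact permutation p = 1). It was -6.75 between first lists and 0.431 between second lists. Untreated list 1, with the fewest and widest peaks, stood above the other 3 lists on this scale.

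Of 97 sites held by both untreated lists, both tamoxifen lists held 78 (80.4%), 1 of them held 15 and neither held 4. Of 115 sites held by both tamoxifen lists, 19 (16.5%) had no untreated H3K27me3 peak. These counts of 19 and 4 were 5 and 5 with peaks of 500 bp or wider, and 1 and 6 with an equal number of widest peaks from each list, so their order depended on these settings. For H3K27me3 regions as units, the values on sites were close to those off them. Of 138 regions on sites in both untreated lists, 133 (96.4%) were in both tamoxifen lists, against 91.6% of 5060 regions off the sites, and 1 (0.725%) was in neither, against 1.7%. Of 172 regions on sites in both tamoxifen lists, 17 (9.88%) were in no untreated list, against 9.75% of 6851 off the sites.

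Tamoxifen list 2, the list with most peaks, was the only H3K27me3 list at 115 sites, more than the 78 held by all 4. Untreated list 2 was alone at 50 sites, tamoxifen list 1 at 49 and untreated list 1 at 20. The second lists of both states, without either first list, held 50 sites, of which 23 were in all 4 H3K9me3 lists. The first lists of both states, without either second list, held 17. Lists of the tamoxifen state alone held 183 sites (41.1%), and lists of the untreated state alone held 74 (16.6%). The same shares over all H3K27me3 regions are not given here, so these are no result about the sites. The lists held 15116 and 22265 peaks after tamoxifen and 7041 and 17094 without it. The 4 counts of sites held by 1 list alone have the same order as the peak numbers of those lists.

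At the 78 sites in all 4 H3K27me3 lists, H3K27me3 peaks covered 52.9 and 44.8% of their summed width without tamoxifen and 42.4 and 47.1% after it. The mean difference was -4.08 percentage points (exact permutation p = 0.667), from -10.4 between first lists to 2.28 between second lists. Cover was lower after tamoxifen at 51 of these sites between first lists and at 27 between second lists, with 19 in both, and it was higher in both at 4. The direction differed between the first and the second lists.

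Sites held by both lists of 1 state and by neither list of the other were set beside all sites held by 2 H3K27me3 lists. The 19 held by both tamoxifen lists alone shared from 157 to 3990 bases with a median of 573. Being in both lists did not mean that their peaks coincided. At chr6:48544517-48551596, the site with 3990 shared bases, the tamoxifen lists covered 526 and 3464 bases that did not overlap. The 4 of the reverse kind shared from 197 to 1082 bases with a median of 637. This median was 633 over the 100 sites in 2 H3K27me3 lists and 486 over all sites, most of which were in 1 list. In the fuller of the tamoxifen lists H3K27me3 covered from 4.99 to 100% of the 19 sites, with a median of 32.9%. Of the 19, 7 were in all 4 H3K9me3 lists. The widest of these, chr1:34481187-34489587 (8401 bp), had 333 and 800 bases of H3K27me3 after tamoxifen and H3K9me3 over 5918, 4266, 7034 and 7412 bases. H3K27me3 after tamoxifen covered 357 and 222 bases of chr7:134751310-134757920 (6611 bp), 157 and 73 of chr3:108043959-108047103 (3145 bp), 394 and 1438 of chr1:87487629-87490438 (2810 bp), and 454 and 132 of chr5:121081328-121083047 (1720 bp). At chr1:87487629-87490438 as well, the tamoxifen lists covered bases that did not overlap. These 5 sites were named for their H3K9me3 lists and width, and their cover does not stand for the 19. The 4 sites of the reverse kind were chr13:25137247-25146775, chr10:120789874-120793061, chr11:48979189-48980464 and chr8:3991494-3992164. Untreated H3K27me3 covered 860 and 555 bases of the first, 197 and 80 of the second, 480 and 788 of the third and 414 and 193 of the last. Whether any of these is a change or a peak near the calling limit cannot be told apart from positions alone.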

How the data were processed

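Each library has 1 list of peak positions deposited by the authors, in bp, and no other value. Per the submitters' processing notes, reads were aligned with Bowtie 0.12.7 and peaks called with MACS2 2.0.10 or 2.1.0 on mm9. The sources used here do not give the calling mode, threshold or control. Per the labels' protocols, chromatin was sonicated and sequenced on an Illumina HiSeq, with 15 cycles stated. Short reads align less often to a single place in repeats.

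Groups came from the titles. The first library of each group has no replicate number and is called list 1, so numbers do not pair libraries. No pair of lists shared more than 1 identical peak. Touching peaks were merged, positions are counted from 1, and shared bases are those in peaks of both marks. Python 3.11.15 with NumPy 2.4.6, SciPy 1.17.1, pandas 2.3.3 and Matplotlib 3.10.9 was used, and the code was checked on simulated peaks. The states were set against each other by exact permutation of the libraries, two-sided.

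The members, the lists and the tests were chosen with earlier results of these data known. Named sites are the 10 with most shared bases among those in all 8 lists, the 10 others with most shared bases, the 5 widest, up to 5 in both lists of 1 state alone (most H3K9me3 lists first, then widest), and the largest cluster. Planned sequence features and gene lists need an mm9 reference and were not run. Alternatives were other merging gaps, overlaps, numbers of lists, peak widths, chromosomes, batches and distances, and each library left out in turn.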

Additional observations from a re-analysis of the deposited data

Results flagged for a closer look

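At 4 of 46 groups of 4 H3K9me3 lists examined, 1 library lay far from the other 3 in the bases it covered. The rule flags about 1 group in 20 among normal draws. Covered bases are bounded by 0 and by the width of the site, so that rate need not hold here. At chr17:39979912-39985790 list 1 was highest with 5879 bases, beside 5791, 5784 and 5789, and all 4 lists covered at least 98.4% of the site. At chr9:3000007-3039379 list 1 was highest with 38324 bases, beside 10351, 9272 and 10089. At chr11:3049770-3050200 list 1 was lowest with 0 bases, beside 379, 431 and 378, and at the neighbouring chr11:3050943-3051505 it was lowest with 0, beside 502, 501 and 521. List 1 had no peak at 274 of the 424 sites not in all 8 lists, so its absence from a site was common. In all 4 cases the library apart was list 1, the only H3K9me3 list called with MACS2 2.0.10, and the part of the caller's version was not tested.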

How the results depend on the processing

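The count of 445 sites was 267 with 3 or more H3K9me3 lists, 133 with all 4, 211 with 2 or more H3K27me3 lists, 226 with peaks of 500 bp or wider and 120 with the wider 50% of each list. With each library left out it was 254 to 425, lowest without H3K9me3 list 3. The median width was 3891 bp in all 4 H3K9me3 lists, 2043 bp with peaks of 500 bp or wider and 1322 to 1668 bp without each library. Median shared bases were 755.5 with peaks of 500 bp or wider and 479.5 to 520 without each library. Sites in all 8 lists numbered 12 where a common base was required and 19 to 36 without each library. Clustered sites numbered 53 within 10 kb, 240 within 1 Mb, 45 with peaks of 500 bp or wider and 41 to 103 without each library (57 without H3K9me3 list 2, 41 without list 3).

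The share of sites on chromosome 8 regions was 2.88% in all 4 H3K9me3 lists, 2.73% with peaks of 500 bp or wider and 3.09 to 4.39% without each library, above the other autosomes (0.958 to 1.48%) each time. The share whose next region is a site was 8.7 to 11.9% without each library. Both checks were added after the data were seen.

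With an equal number of widest peaks per list, tamoxifen minus untreated turned to -17 sites and -14466.5 shared bases, and 1 site was in both tamoxifen lists alone against 6 in both untreated lists alone. Between first lists the bases gave -12391. Without each library the differences were 17.5 to 109.5 sites and -22552.5 to 59014.5 bases, negative without tamoxifen list 2. Sites in both tamoxifen lists alone numbered 7 in all 4 H3K9me3 lists, 5 with peaks of 500 bp or wider and 10 to 134 without each library. The reverse kind numbered 2 in all 4 H3K9me3 lists, 5 with peaks of 500 bp or wider and 1 to 54 without each library. Leaving out an H3K27me3 list leaves its state with 1 list, which raises such counts. With the replicate number as a block, the difference was 63.5 sites (exact sign flips, p = 0.5) and 18231 bases (exact sign flips, p = 1). Sign flips of 2 differences cannot give a p below 0.5, and the numbers do not pair libraries, so this block cannot separate the states. Other causes were not tested. Without read depth or peak height, an absent peak does not show an absent mark.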

Other observations

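The 3 clusters without a peak in either first H3K27me3 list differed in H3K9me3. At chr10:57685506-57702505 the shared bases of the 4 sites came to 4425, at chr8:19917172-19980908 those of the 5 sites to 5122, and at chr4:146551728-146653136 those of the 4 sites to 2264. All 4 H3K9me3 lists held every site of the clusters on chromosomes 10 and 4 and 2 of the 5 sites on chromosome 8.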
